A study of Homo sapiens with 4 samples.

Results

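Isoforms that were close to silent in one condition and present in the other were examined after METTL3 silencing in HepG2 cells. An isoform, chosen by these values alone, counted as switched on when its control value was under 0.1 FPKM (fragments mapped to it, scaled by transcript length and by all mapped fragments) and its knockdown value was at least 1 FPKM, and as switched off in the reverse case. The authors' isoform table lists 7251 changed isoforms, and 6955 were left after 296 isoforms with small RNA names were set aside. The thresholds picked 358 of them. On isoforms numbered 196 (2.82% of the 6955) and off isoforms 162 (2.33%). With the active level lowered to 0.5 FPKM the counts were 317 on and 280 off. The same FPKM values chose the isoforms, so their levels are a description and no test is made on them.

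HepG2 is an established human hepatoma line. Both groups were transfected, one with an siRNA against METTL3 and the other with a scrambled control, again after 48 and 96 hours, and both were collected on day 7. Each group had 2 poly(A)-selected libraries, which the series design calls biological replicates. The isoform table gives 1 value per group, with no replicate values, so no error can be given for an FPKM value, and the depth behind it is unknown. METTL3 was at 955 mean normalized counts in the control and 241 in the knockdown in the authors' deposited gene table.

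METTL3 is the catalytic subunit of the enzyme that places N6-methyladenosine (m6A) on messenger RNA, a mark read by proteins that act on splicing, export, translation and decay. One gene can give several isoforms through alternative promoters, splice sites and polyadenylation sites, and these can encode different proteins or differ outside the coding sequence alone. An estimate of isoform levels divides the reads of shared exons among the models of a gene, so the values of isoforms of 1 gene are tied to each other.

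Of the 358 isoforms, 213 belong to 179 genes with an ordinary gene symbol (113 on, in 100 genes, and 100 off, in 87 genes), which is 3.41% of the 6247 listed isoforms with such a name. The other 145 (83 on and 62 off) carry names of genomic clones and are counted but not named. The clone-named isoforms had higher active levels, with medians of 15.3 FPKM for on and 17.7 FPKM for off isoforms, against 1.92 and 2.00 FPKM for those with gene symbols. What follows is about the 213 isoforms with gene symbols.

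Stretches of coding sequence are shown that set a switched isoform apart from an isoform of its gene that moved the other way. They come from 9 genes in which the models differ by few blocks and were chosen after the values were seen. For RALGDS, MAX and PPARG, other coding differences within the pair are not printed. The deposited values are on hg18, and structures and sequences were taken by transcript ID from GENCODE v29 on GRCh38, where a model may have changed. Capitals mark the block present in the named isoform and absent from the other, and lower case the coding bases next to it, at most 15 on each side. The first set holds blocks inside the coding sequence or, for KLC1, at its end.
NDRG2 ENST00000397851, chr14:21022864-21022905 (-), 42 bases absent from ENST00000360463: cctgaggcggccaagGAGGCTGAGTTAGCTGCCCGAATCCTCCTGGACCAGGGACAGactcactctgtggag
KLC1 ENST00000334553, chr14:103700655-103700726 (+), 72 bases absent from ENST00000246489: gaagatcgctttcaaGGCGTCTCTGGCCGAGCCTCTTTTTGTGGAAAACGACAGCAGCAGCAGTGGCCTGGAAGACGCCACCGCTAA
KLC1 ENST00000246489, chr14:103693553-103693618 (+), 66 bases absent from ENST00000334553: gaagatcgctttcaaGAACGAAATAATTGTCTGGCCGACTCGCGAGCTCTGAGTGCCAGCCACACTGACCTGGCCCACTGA
TPD52L2 ENST00000358548, chr20:63887564-63887605 (+), 42 bases absent from ENST00000348257: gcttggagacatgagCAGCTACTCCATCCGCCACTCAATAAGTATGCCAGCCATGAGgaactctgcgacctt
MEN1 ENST00000394374, chr11:64809650-64809664 (-), 15 bases absent from ENST00000377326: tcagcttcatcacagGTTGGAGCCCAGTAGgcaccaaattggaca
CAMK2G ENST00000394762, chr10:73839539-73839601 (-), 63 bases absent from ENST00000322680: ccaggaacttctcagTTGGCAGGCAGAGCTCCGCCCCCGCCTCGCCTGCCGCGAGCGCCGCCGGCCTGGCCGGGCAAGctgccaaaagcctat
CAMK2G ENST00000322680, chr10:73819532-73819645 (-), 114 bases absent from ENST00000394762: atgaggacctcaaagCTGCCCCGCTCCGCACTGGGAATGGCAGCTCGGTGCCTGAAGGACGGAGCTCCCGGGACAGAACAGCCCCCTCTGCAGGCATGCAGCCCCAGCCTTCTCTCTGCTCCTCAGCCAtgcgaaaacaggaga

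A second set holds first coding exons, which begin with the start codon ATG (PPARG and both RALGDS isoforms), internal exons (ETV1) and a last coding exon (MAX).
PPARG ENST00000287820, chr3:12351593-12351674 (+), 82 bases absent from ENST00000397026: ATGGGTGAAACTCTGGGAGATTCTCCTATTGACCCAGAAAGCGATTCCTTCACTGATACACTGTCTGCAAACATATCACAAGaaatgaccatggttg
RALGDS ENST00000393157, chr9:133129139-133129318 (-), 180 bases absent from ENST00000372062: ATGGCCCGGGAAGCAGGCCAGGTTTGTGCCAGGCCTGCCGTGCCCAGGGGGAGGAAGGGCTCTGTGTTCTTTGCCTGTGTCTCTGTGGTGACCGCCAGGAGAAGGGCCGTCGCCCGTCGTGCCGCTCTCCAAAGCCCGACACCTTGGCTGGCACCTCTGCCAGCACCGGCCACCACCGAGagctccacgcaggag
RALGDS ENST00000372062, chr9:133130952-133131083 (-), 132 bases absent from ENST00000393157: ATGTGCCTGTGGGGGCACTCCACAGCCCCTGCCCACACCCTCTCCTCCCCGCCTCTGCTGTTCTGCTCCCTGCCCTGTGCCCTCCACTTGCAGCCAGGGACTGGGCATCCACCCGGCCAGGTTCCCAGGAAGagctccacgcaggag
ETV1 ENST00000403685, chr7:13911239-13911307 (-), 69 bases absent from ENST00000405192: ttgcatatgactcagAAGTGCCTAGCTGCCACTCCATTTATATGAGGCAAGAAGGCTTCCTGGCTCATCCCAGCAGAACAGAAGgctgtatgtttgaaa
ETV1 ENST00000405192, chr7:13977427-13977480 (-), 54 bases absent from ENST00000403685: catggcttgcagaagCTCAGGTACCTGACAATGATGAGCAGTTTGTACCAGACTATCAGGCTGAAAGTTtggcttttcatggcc
MAX ENST00000341653, chr14:65006204-65006284 (-), 81 bases absent from ENST00000358664: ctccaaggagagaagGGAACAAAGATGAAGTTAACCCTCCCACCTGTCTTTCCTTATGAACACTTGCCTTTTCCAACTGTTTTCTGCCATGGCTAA

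Among the on isoforms, 75 were listed at 0 in the control and 38 had a value between 0 and 0.1 FPKM. Their knockdown values ran from 1.002 to 66.4 FPKM, and 54 were at 2 FPKM or more and 13 at 5 or more. Among the off isoforms, 61 were listed at 0 in the knockdown and 39 were above 0, with control values from 1.0004 to 11.4 FPKM, 50 of them at 2 FPKM or more and 10 at 5 or more. Most switched isoforms were therefore of low level also where they were active. Where neither group was at 0, the median log2 ratio had a size of 4.90 for on isoforms (3.59 to 10.33) and 5.32 for off isoforms (3.60 to 10.09), which the thresholds set from below. In bulk RNA, fewer cells with an isoform and less of it per cell cannot be told apart.

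**Figure D1:**
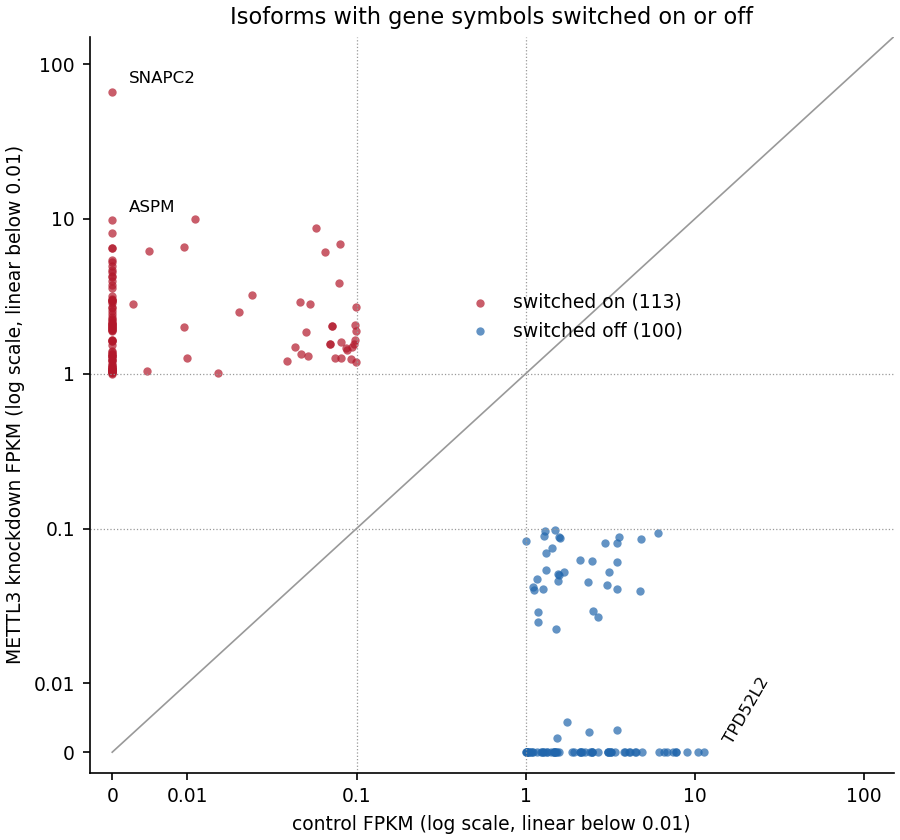
The 213 switched isoforms with gene symbols, control FPKM on the x axis and METTL3 knockdown FPKM on the y axis, both logarithmic above 0.01 and linear below, with 1 point per isoform. Dotted lines mark 0.1 and 1 FPKM and the diagonal equal levels. The 113 on isoforms lie at the upper left, with SNAPC2 apart at 66.4 FPKM, and the 100 off isoforms at the lower right.

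The highest on isoform was ENST00000394102 of SNAPC2, a subunit of the complex that activates small nuclear RNA genes. It had no estimate above 0 in control cells and 66.4 FPKM after knockdown, and no other SNAPC2 isoform was listed. Its ID is absent from v29, and SNAPC2 is not in the gene table. An isoform of ASPM, a spindle pole protein of dividing cells, was at 0 and 9.84 FPKM, next to one of IMPDH1 described below, at 9.97 FPKM. MGST3, a microsomal glutathione transferase, had an isoform at 0 and 8.11 FPKM, and its 2 other listed isoforms were higher too. An isoform of the zinc finger factor ZNF384 went from 0.0651 to 6.14 FPKM, although in v29 its ID stands under another gene. Both switched isoforms of NIF3L1 were at 0 in control cells and reached 5.40 and 5.28 FPKM in the knockdown.

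Among off isoforms the highest control level was that of ENST00000358548 of TPD52L2, a coiled-coil protein of the D52 family, at 11.4 FPKM against 0 in the knockdown. ENST00000302550 of PPPDE1 (now DESI2) went from 10.5 FPKM to 0, while a second isoform of the gene went from 0.523 to 2.72 FPKM. POLR1C, a subunit shared by RNA polymerases I and III, had an isoform that went from 9.01 FPKM to 0 and another that went from 8.86 to 27.0 FPKM. GUK1, the guanylate kinase that makes GDP from GMP, had 8 listed isoforms: ENST00000366719 went from 7.74 FPKM to 0, and the other 7 were all higher. Its highest isoform went from 18.6 to 50.6 FPKM. OSBPL9, an oxysterol-binding protein relative, had an isoform at 6.59 FPKM in the control and 0 in the knockdown, beside 2 that were higher. FGFR1OP2 had 1 listed isoform, at 6.13 FPKM and 0. C10orf32 had an off isoform that went from 6.02 to 0.0941 FPKM, and its other listed isoform was lower too, from 4.19 to 0.893 FPKM.

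At the thresholds, on isoforms of C1orf54 and ETV1 were just inside with 1.002 and 1.01 FPKM in the knockdown, and isoforms of DYNC1I2 and DTNB just outside with 0.995 and 0.994 FPKM. On the off side, isoforms of UBE2D3 and FBLN7 were just inside with 1.0004 and 1.001 FPKM in the control, and isoforms of TJP3 and LIPT1 just outside with 0.959 and 0.955 FPKM. At the silent level in the control, isoforms of SHC1 and EGFL9 were inside with 0.0996 and 0.0989 FPKM, and both ATL2 and IL15RA had one outside at 0.104 FPKM. At the silent level in the knockdown, isoforms of C1orf59 and PAPLN were inside with 0.0974 and 0.0971 FPKM, and isoforms of GABPB1 and LHPP outside with 0.1002 and 0.103 FPKM. Isoforms on either side of a threshold thus had nearly the same levels.

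Another listed isoform of the same gene moved the other way for 115 of the 213 switched isoforms (54.0%), in 91 genes. The same was so for 24.2% of the 6034 other listed isoforms with gene symbols. Of all 6247, switched ones included, 45.8% were higher in the knockdown. The share was 52.2% for on isoforms (59 of 113) and 56.0% for off isoforms (56 of 100). Genes with switched isoforms had more listed isoforms (a median of 2 per gene, against 1). Among isoforms of genes with at least 2 listed, the share was 65.0% of 177, against 46.4% of 3150 others. With exactly 2 listed it was 35.6% of 59 against 30.5% of 1617, with exactly 3 it was 62.8% of 43 against 52.1% of 794, and with 4 or more 89.3% of 75 against 75.2% of 739. Isoforms of a gene share reads and libraries and the rule used the same contrast, so these shares were not tested.

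Of the switched isoforms without such a partner, 32 on and 30 off isoforms had other listed isoforms, all moving the same way, and 22 on and 14 off isoforms were the gene's single listed isoform. Many partners were of low level. Over all 358 isoforms, clone names included, 117 (32.7%) had a partner, and 74 of 354 (20.9%) when 1 FPKM was added to every value and both isoforms still had to change 2-fold. The median log2 ratio of all listed isoforms without a 0 was -1.10, and 98 of the 358 (27.4%) kept a partner when every ratio was taken relative to it and both isoforms still had to change 2-fold. Only isoforms changed at least 2-fold are listed, and more were lower than higher. This median therefore lies just beyond that limit on the lower side and does not measure a shift of all isoforms.

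**Figure D2:**
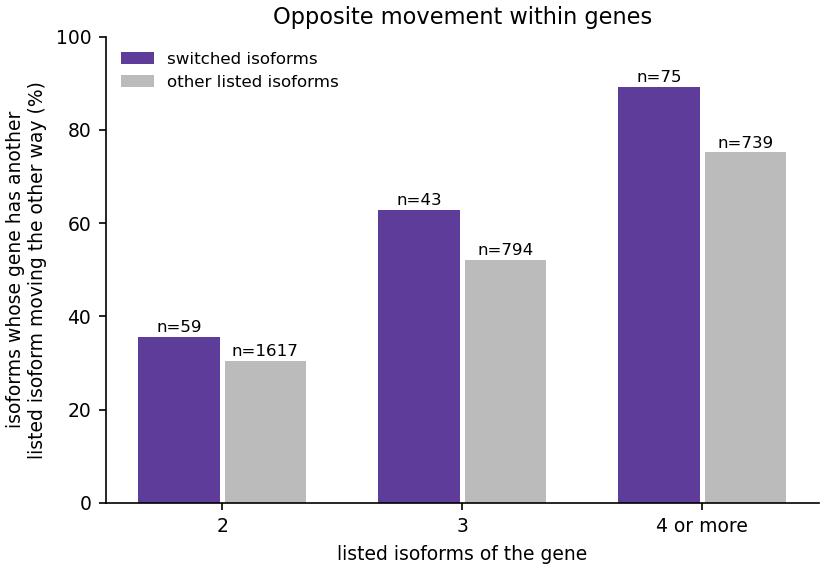
Percent of isoforms whose gene has another listed isoform moving the other way (y axis, from 0), by the number of listed isoforms of the gene (x axis), with bars for switched and for other listed isoforms and the number of isoforms above each. The share climbs with the number listed in both sets, from 35.6% to 89.3% for switched isoforms and from 30.5% to 75.2% for the others.

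In 8 genes the opposite partner was itself switched, so that the gene had both an on and an off isoform: CAMK2G, IMPDH1, LPIN1, PPARG, PTPRK, RALGDS, RGS3 and SCMH1. The number was 2 when the silent group had to be at exactly 0, 4 with an active level of at least 2 FPKM and 22 with one of at least 0.5 FPKM. IMPDH1, which catalyses the rate-limiting step of guanine nucleotide synthesis, had the highest active level among the switched isoforms of these genes. Its on isoforms ENST00000378717 and ENST00000343214, both absent from v29, went from 0.0111 to 9.97 FPKM and from 0.00487 to 6.24 FPKM. Its off isoform ENST00000338791 went from 4.90 FPKM to 0, and ENST00000348127, also at 4.90 FPKM in the control, went to 1.22 FPKM. The 2 IMPDH1 isoforms that were lower began at nearly equal values, and those that were higher began near 0.

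CAMK2G is the gamma subunit of calcium/calmodulin-dependent kinase II, whose isoforms differ in the linker between the kinase and association domains. Its on isoforms ENST00000394762 and ENST00000394763 were at 0 in control cells and reached 2.86 and 2.71 FPKM in the knockdown. Its off isoform ENST00000322635 went from 2.503 to 0.0293 FPKM, and ENST00000322680, the highest in the control, from 5.98 to 0.388 FPKM. The 63-base block printed above for ENST00000394762 was not particular to the rising isoform: of the 3 listed isoforms that hold it, 1 was higher and 2 were lower. The 114-base block is in ENST00000322680 alone among the 5 listed isoforms with a v29 model.

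PPARG, a nuclear receptor of fat storage and lipid metabolism, had 7 listed isoforms. ENST00000397023 and ENST00000397026 were at 0 in control cells and reached 3.04 and 2.93 FPKM in the knockdown, and ENST00000397006 went from 0.0987 to 2.69 FPKM, although in v29 the last ID stands under another gene. The off isoform ENST00000397003 went from 2.46 FPKM to 0. ENST00000287820, which begins with the printed first coding exon of the gamma-2 form, went from 2.55 to 0.391 FPKM. The 3 listed isoforms without that exon in v29 were all higher, at 1.09 FPKM together in the control and 6.80 FPKM in the knockdown. The exon is also in ENST00000397023, which was higher, so the 2 isoforms that hold it moved in opposite directions. In v29, however, ENST00000397023 is marked for nonsense-mediated decay and has 123 coding bases, against 1518 in ENST00000287820.

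RALGDS activates the small GTPase Ral. ENST00000393157 went from 0.0390 to 1.22 FPKM and ENST00000372062 from 1.75 to 0.00440 FPKM, and each begins with a first coding exon that the other lacks, 180 and 132 bases long. Each of these exons was in 1 of the 4 listed isoforms. The listed sum of the gene was 3.59 FPKM in the control and 2.67 FPKM in the knockdown.

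SCMH1, a Polycomb group protein, had an off isoform that went from 4.74 to 0.0397 FPKM and an on isoform at 0 and 1.14 FPKM, and its 7 listed isoforms together went from 7.22 to 2.56 FPKM. LPIN1, a phosphatidate phosphatase and transcriptional coactivator of the liver, had an off isoform at 2.11 FPKM and 0 and an on isoform that went from 0.0810 to 1.60 FPKM and has no coding sequence in v29. The main listed LPIN1 isoform went from 16.1 to 7.38 FPKM. PTPRK, a receptor tyrosine phosphatase, had an on isoform at 0 and 3.75 FPKM and an off isoform at 2.15 FPKM and 0. In v29 the PTPRK on isoform has 526 bases and no coding sequence, and the ID of the off isoform is absent. RGS3, which shortens G protein signals, had an on isoform at 0 and 1.03 FPKM and an off isoform that went from 1.27 to 0.0409 FPKM, and both have the same coding sequence of 3597 bases in v29.

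In other genes a switched isoform faced a partner that moved the other way without crossing the thresholds. KLC1 is a kinesin light chain, which links the motor to cargo, and its isoforms differ at the C terminus. ENST00000334553 went from 7.77 FPKM to 0 and ENST00000246489 from 5.09 to 12.1 FPKM. The first ends its coding sequence with the printed 72-base block and the second with the 66-base block. Another isoform, ENST00000348520, also holds the 72 bases but went from 1.40 to 6.66 FPKM. The listed isoforms with the 72 bases together made up 64.3% of the listed KLC1 FPKM in the control and 35.5% in the knockdown.

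TPD52L2 ENST00000348257, which lacks the printed 42 bases, went from 3.78 to 30.6 FPKM while the off isoform that holds them went from 11.4 FPKM to 0. Among its 5 listed isoforms, the 3 with the block made up 52.9% of the listed FPKM in the control and 17.6% in the knockdown. The block did not sort the isoforms by direction: ENST00000217121, with it, went from 0.919 to 6.23 FPKM, and ENST00000369927, without it, from 8.68 to 0.524 FPKM.

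MEN1 encodes menin, a tumour suppressor that works with histone methyltransferases. Its on isoform ENST00000377326 went from 0.00958 to 6.60 FPKM, and ENST00000394374 and ENST00000312049 went from 2.12 to 0.969 FPKM and from 2.12 to 0.231 FPKM. The coding sequences of ENST00000377326 and ENST00000394374 differ by the 15 printed bases alone, and their starts lie 133 bases apart. Isoforms with the 15 bases moved both ways (1 higher, 1 lower), as did those without (2 higher, 1 lower).

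NDRG2, a member of the N-myc downstream-regulated family, was sorted by its block. Its off isoform ENST00000360463 went from 1.17 to 0.0470 FPKM, and all 5 listed isoforms without the printed 42 bases were lower, at 2.69 FPKM together in the control and 0.0940 FPKM in the knockdown. Both isoforms with the 42 bases were at 0 in control cells and reached 0.555 and 0.492 FPKM in the knockdown. ETV1, an ETS transcription factor, had 2 listed isoforms, ENST00000403685 at 0 and 1.01 FPKM and ENST00000405192 at 1.53 and 0.463 FPKM, each with a coding exon the other lacks, of 69 and 54 bases. NDRG2 was named after its values were seen.

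MAX is the partner through which MYC binds DNA. Its on isoform ENST00000341653 was at 0 and 3.01 FPKM and has a coding sequence of 252 bases, which ends in the printed block, where that of ENST00000358664 has 483. ENST00000358664 went from 8.38 to 2.89 FPKM. The 3 other listed MAX isoforms were all higher, and the largest went from 13.4 to 32.2 FPKM.

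**Figure D3:**
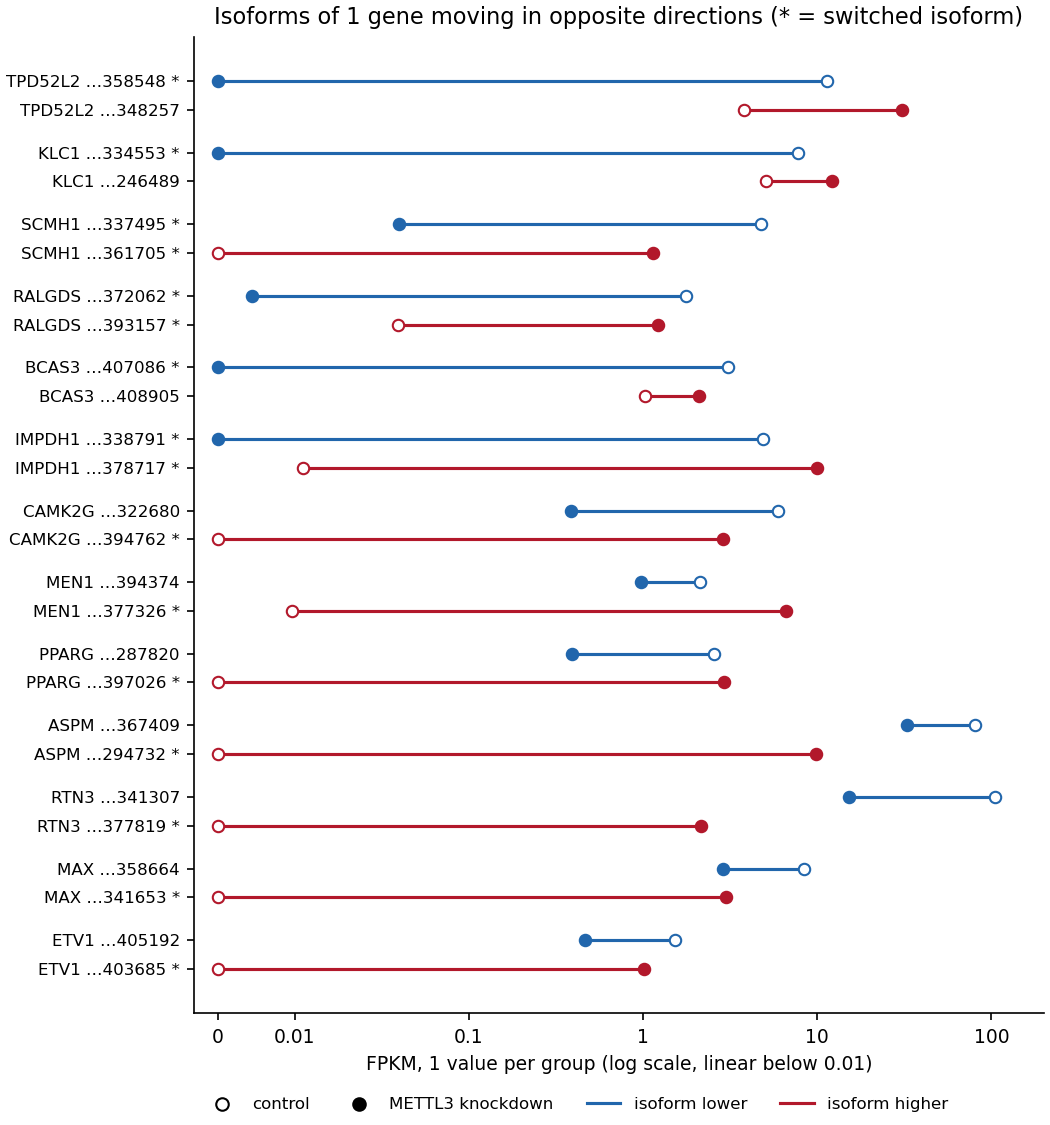
FPKM of isoforms of 13 genes, the lower one above the higher one in each gene, on an axis that is logarithmic above 0.01 and linear below, with open circles for the control and filled circles for the knockdown, 1 value per group. Asterisks mark switched isoforms, labels give the last 6 digits of the transcript ID, and in each gene one line runs left and the other right.

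In some genes the switched isoform was small beside the isoforms that moved the other way. The on isoform of ASPM lacks 4755 coding bases that ENST00000367409 has, and that isoform went from 81.0 to 32.7 FPKM. RTN3, a reticulon of the endoplasmic reticulum, had an on isoform at 0 and 2.15 FPKM with 3099 coding bases, while ENST00000341307, with 726, went from 104.7 to 15.2 FPKM. FNBP1L, which bends membranes during endocytosis, had an on isoform at 0 and 1.64 FPKM beside one that went from 17.1 to 4.61 FPKM. For these 3 genes the on isoform stood against a fall of the most abundant listed isoform.

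In BCAS3 most listed isoforms were lower: its off isoform went from 3.07 FPKM to 0, 4 other isoforms were lower, and the 2 that were higher reached 2.09 and 1.54 FPKM. POGZ, a zinc finger protein of heterochromatin, had an off isoform at 6.86 FPKM and 0, another that went from 8.03 to 0.149 FPKM and one that went from 0.613 to 3.50 FPKM. The POGZ off isoform is a retained-intron transcript without coding sequence in v29. SCOC, a coiled-coil protein of the Golgi, had an off isoform at 7.45 FPKM and 0 beside one with the same coding sequence that went from 2.42 to 7.59 FPKM. APITD1, a kinetochore protein gene, had an off isoform that went from 4.78 to 0.0859 FPKM and another isoform that went from 0.551 to 2.63 FPKM. In v29 the ID of the off isoform is absent and that of the other stands under another gene.

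Over the 91 genes with opposite isoforms, the FPKM of all listed isoforms was summed per gene. The knockdown sum was within 1.5-fold of the control sum in 34 genes, higher in 23 and lower in 34. Genes with on isoforms alone had a median ratio of knockdown to control sum of 0.960 (18 of 43 within 1.5-fold, 11 higher, 14 lower). Genes with off isoforms alone had a median of 0.705 (13 of 40 within, 9 higher, 18 lower). KLC1 went from 14.3 to 18.7 FPKM and CAMK2G from 10.6 to 9.38 FPKM, both within 1.5-fold. The sum for YY1AP1 went from 5.53 to 16.6 FPKM and that for RTN3 from 205 to 39.3 FPKM. Isoforms that the authors did not list are missing from these sums. Sums were not made for genes with opposite isoforms but no switched one, so the split has no comparison.

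**Figure D4:**
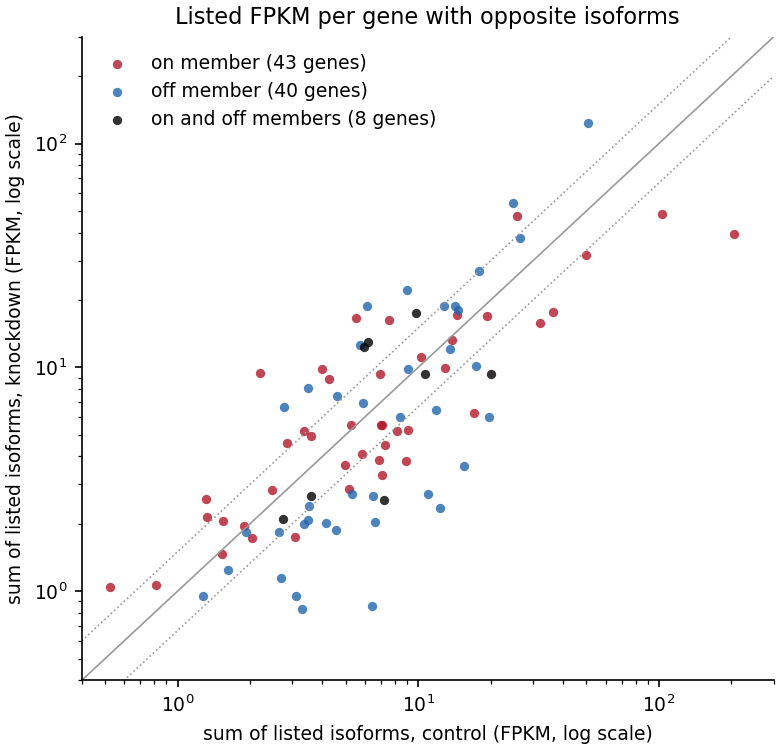
Sum of the listed isoforms per gene in the control (x axis) and in the knockdown (y axis), in FPKM on log scales, for the 91 genes with a switched isoform and another moving the other way. The solid line marks equal sums and the dotted lines 1.5-fold. Of the genes, 34 lie between the dotted lines, 23 above and 34 below.

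In 24 cases a gene had at least 2 isoforms switched in 1 direction, 50 isoforms in all. In 21 of the 24 (87.5%) their active levels lay within 1.5-fold of each other, and in 17 (70.8%) within 1.1-fold. Among 673 sets of other listed isoforms of 1 gene and direction, at 1 FPKM or more, 31.1% lay within 1.5-fold and 10.5% within 1.1-fold. The levels of the switched isoforms are held from below by the threshold and are mostly low, so the sets are not alike. ATXN3, the deubiquitinase with the polyglutamine tract of Machado-Joseph disease, had off isoforms at 2.68 and 2.68 FPKM in the control. HMGA1, an architectural chromatin protein, had off isoforms at 3.21 and 3.17 FPKM, and CENPM, a centromere protein, at 3.08 and 3.05 FPKM. All 6 of these isoforms were at 0 in the knockdown except 1 of ATXN3, at 0.0270 FPKM. HMGA1 and CENPM were named after their values were seen. The on isoforms of MARK2, a microtubule-affinity-regulating kinase, were at 1.27 and 1.27 FPKM in the knockdown. The on isoforms of PTRF, the caveolar coat protein cavin-1, were at 4.70 and 4.29 FPKM, and the off isoforms of PRSS16, a thymic serine protease, at 4.12 and 3.88 FPKM. YY1AP1, which binds the transcription factor YY1, had on isoforms at 6.51 and 6.47 FPKM and another at 1.07 FPKM, beside ENST00000404643, which went from 5.53 to 2.55 FPKM.

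Models in GENCODE v29 were found under the same gene for 135 of the 213 isoforms (63.4%), against 73.1% of the other listed isoforms. Another 6 IDs stood under another gene and 72 were absent. Of the matched isoforms, 64 of 70 on (91.4%) and 61 of 65 off (93.8%) were protein coding, against 94.5% of the others. Their median lengths were 1961 bases for on and 2383 for off isoforms, against 2685 for the others. The switched isoforms were thus mostly coding transcripts, as the other listed isoforms were.

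Both isoforms of a pair could be compared for 64 switched isoforms in 53 genes, each with the listed opposite isoform of highest level that has a model. A pair of 2 switched isoforms counts once for each. The starts lay over 50 bases apart in 49 pairs (76.6%) and the ends in 29 (45.3%). Among 818 opposite pairs of other listed isoforms, the shares were 65.9% and 57.3%. A different start with the same end was found in 25 pairs (39.1%, against 27.3% of other pairs), and both ends differed in 24 (37.5%, against 38.6%). In 11 pairs (17.2%, against 13.9%) the coding sequences were the same, so that the isoforms differed outside them. They include DBNDD2, MCFD2, SCOC, TMEM51 and WDSUB1, named after their values were seen. In 46 pairs both were coding and differed. In 42 of these the coding lengths differed by a multiple of 3, against 605 of 640 other pairs. Complete coding sequences have lengths that are multiples of 3, so this count says nothing about the switched isoforms. In 18 pairs (28.1%, against 21.3%) each isoform shared at least 90% of its bases with the other.

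The motif GGACT, a preferred form of the m6A consensus, was searched on the sense strand of the v29 transcripts. At least 1 copy was in 78.6% of on and 87.7% of off isoforms, against 89.0% of the other listed isoforms and 75.7% of all 83064 protein-coding transcripts of v29. Per kilobase, the median numbers were 1.04 and 1.11, against 0.961 and 0.971. The on isoforms also have the smallest median length of the 3 listed sets. A match is a string of letters, not a methylated site.

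Members of 12 gene lists were looked up beside the 3.41% of symbol-named isoforms that were switched. Of nucleotide, lipid and amino acid metabolism genes, 4 on and 3 off isoforms among 44 listed were switched (15.9%), in IMPDH1, LPIN1, FOLH1 and SULT1A3. FOLH1, a glutamate carboxypeptidase, had an isoform that went from 2.36 to 0.00295 FPKM. The SULT1A3 isoform, at 0.00460 and 1.048 FPKM, is uncertain, as this sulfotransferase has a near-identical copy. Of vesicle coat and membrane traffic genes, 3 on and 1 off of 51 were switched (7.84%). BIN1, an amphiphysin, had an on isoform at 0 and 1.097 FPKM beside one that went from 5.37 to 1.07 FPKM. SYNJ1, a phosphoinositide phosphatase of endocytosis, had one at 0 and 1.90 FPKM beside one that went from 5.14 to 0.975 FPKM. SEC16A, a scaffold of endoplasmic reticulum exit sites, had one at 0 and 1.30 FPKM beside one that went from 5.47 to 0.617 FPKM. In these 3 traffic genes the on isoform stood beside a higher control isoform that was lower in the knockdown. EPN2, an epsin of clathrin coats, had 1 listed isoform, which went from 3.48 to 0.00319 FPKM.

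Of transcription factors of hepatocytes and stress, 5 on and 2 off of 95 were switched (7.37%), in PPARG, MAX, ETV1 and NFYC. NFYC, a subunit of the CCAAT-binding factor NF-Y, had an off isoform at 2.12 FPKM and 0, and 4 of its 5 other listed isoforms were higher, one of them from 1.06 to 10.9 FPKM. Of chromatin regulators, 2 on and 1 off of 60 were switched (5.00%), in MEN1 and SCMH1. On the list of small GTPases and their regulators, 1 on and 2 off of 68 were switched (4.41%), in RALGDS and EPN2. The same EPN2 isoform is counted above among vesicle coat and membrane traffic genes. Of ubiquitin genes, 0 on and 3 off of 72 were switched (4.17%), in ATXN3 and in UBE2D3, a ubiquitin-conjugating enzyme. ATXN3 also had 2 isoforms that were higher, from 0.277 to 3.53 FPKM and from 0.274 to 3.36 FPKM. Kinases and phosphatases had 2 on of 56 (3.57%), both of MARK2, and cytoskeleton and adhesion genes 1 on of 73 (1.37%), of PALM2. The lists are not complete: the kinase genes CAMK2G and EIF2AK2, the phosphatase gene PTPRK and the adhesion gene PVRL4 have switched isoforms and are on none of them. No switched isoform was found among 6 listed isoforms of m6A writers, erasers and readers, 52 of p53 and apoptosis genes, 17 of splicing factors and 70 of DNA replication and repair genes.

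The gene table, which gives group means of normalized read counts, listed 36 of the 179 genes (20.1%), against 36.5% of the 4028 other genes in the isoform table. Of its 1977 genes, 41.3% were higher and 58.7% lower. Of 49 genes with on isoforms and no opposite isoform, 13 were listed and all 13 were higher. Of 43 genes with on isoforms and an opposite one, 6 were listed, 2 of them higher (PALM2 and TMEM51) and 4 lower (ASPM, FNBP1L, HIST1H2AC and RTN3). Of 39 genes with off isoforms and no opposite one, 13 were listed and all were lower. Of 40 with an opposite one, 2 were listed (BCAS3 and CATSPER2), both lower. TMEM51, HIST1H2AC and CATSPER2 were named after their values were seen. Of the genes switched both ways, LPIN1 was lower and PPARG higher. The tables come from the same libraries, so this is no independent support.

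Where the whole gene was listed, its level moved with the on isoform in some genes and against it in others. RTN3 went from 5434 to 1277 normalized counts (log2 fold change -2.09 and adjusted p = 7.63e-220 in the authors' deposited table). ASPM went from 19036 to 9478 normalized counts (log2 fold change -1.01, adjusted p = 1.98e-52 in the authors' deposited table). In both, a new isoform was listed while the gene was lower. UNC13A, a priming factor of synaptic vesicles, went from 8.72 to 577 normalized counts, with 1 listed isoform at 0.0465 and 2.90 FPKM. PVRL4 (nectin-4, an adhesion molecule) went from 2.81 to 157 normalized counts, with 1 isoform at 0.0531 and 2.81 FPKM. PALM2 (now PALM2AKAP2) went from 376 to 1398 normalized counts, with 3 isoforms higher and 2 lower. Its on isoform ENST00000302798 shares 8.37% of its bases in v29 with ENST00000374531, which was lower. The 2 have 3273 and 1140 coding bases.

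IL6, an acute phase cytokine, went from 6.10 to 154 normalized counts (adjusted p = 2.05e-26 in the authors' deposited table), with an on isoform at 0.0802 and 6.88 FPKM and a second from 0.139 to 3.92 FPKM. The chemokine gene CCL20 went from 1.65 to 25.9 normalized counts and the receptor gene IL7R from 9.98 to 173. EIF2AK2, the double-stranded RNA-activated kinase PKR, had an on isoform at 0 and 4.53 FPKM and another that went from 0.128 to 4.24 FPKM, and the gene is not in the gene table. The acute phase gene SAA1 had an isoform at 0.0579 and 8.69 FPKM, uncertain because of its close relative SAA2. CCL20, IL7R and EIF2AK2 were named after their values were seen.

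Among off isoforms whose gene was lower, VIT, a matrix protein gene, went from 545 to 58.1 normalized counts, with an off isoform at 1.54 and 0.00213 FPKM and 2 others from 8.18 and 4.85 FPKM to 0.108 FPKM each. PAPLN, a papilin of the matrix, went from 460 to 88.1 normalized counts, with off isoforms at 1.31 and 1.30 FPKM in the control. KLF12, a Krüppel-like repressor, went from 616 to 198 normalized counts, with 1 listed isoform at 2.10 and 0.0628 FPKM. The natural killer receptor genes KLRC2, KLRC3 and KLRC4 were all lower and are near-identical neighbours, so their reads may be divided wrongly among them. KLRC2 and KLRC4 were named after their values were seen. These genes had several or all listed isoforms lower.

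Exon values, as normalized read counts, exist for each of the 4 libraries, and the exon table listed 18 exons in 13 loci with a switched isoform, 11 lower and 7 higher in the knockdown. Among all 474 listed exons 67.5% were lower, and the groups did not overlap in 98.9% of exons, as in 18 of these 18, so the absence of overlap says nothing about these genes. Exons keep the authors' numbers, and they were not matched to the v29 blocks above. Exon 11 of KLC1 had 91.8 and 127 normalized counts in control libraries, against 52.96 and 50.1 after knockdown (110 ± 25.2 against 51.5 ± 2.01, SD, n = 2). Exon 5 of RTN3 had 27.7 and 53.7 in control libraries and 57.3 and 71.5 after knockdown (40.7 ± 18.4 against 64.4 ± 10.0, SD, n = 2). The RTN3 exon was higher while the gene was lower, and the nearest values of the groups lay close together.

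COL12A1, the alpha chain of collagen XII, had 1 listed isoform, which went from 1.29 FPKM to 0, and 4 listed exons, all lower. Exon 19 had 132 and 124 normalized counts in control libraries, against 7.81 and 14.8 after knockdown, and exon 21 had 109 and 101 against 7.81 and 9.28. Exon 15 had 254 and 256 against 79.9 and 78.0, so the exons of this gene were lower to different degrees. Exon 8 of MARK2 had 27.7 and 38.3 in control libraries and 3.47 and 2.78 after knockdown. Exon 8 of PPPDE1 had 15.1 and 14.4 against 2.60 and 1.86. Exon 35 of MIA3, a cargo receptor for collagen export, had 23.9 and 23.0 against 9.55 and 5.57, where the on isoform was at 0 and 1.06 FPKM and another isoform went from 6.002 to 14.5 FPKM. Exon 6 of UQCC (now UQCC1), an assembly factor of respiratory complex III, was higher, with 123 and 127 against 287 and 262, while its listed isoform went from 1.47 FPKM to 0.

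Loci that merge neighbouring genes cannot be assigned to one of them. The merged PSIP1 and SNAPC3 locus had one exon higher, from 57.8 and 65.2 to 203 and 175 normalized counts, and another lower, from 57.8 and 86.2 to 26.9 and 23.2. SNAPC3 was named after its values were seen.

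**Figure D5:**
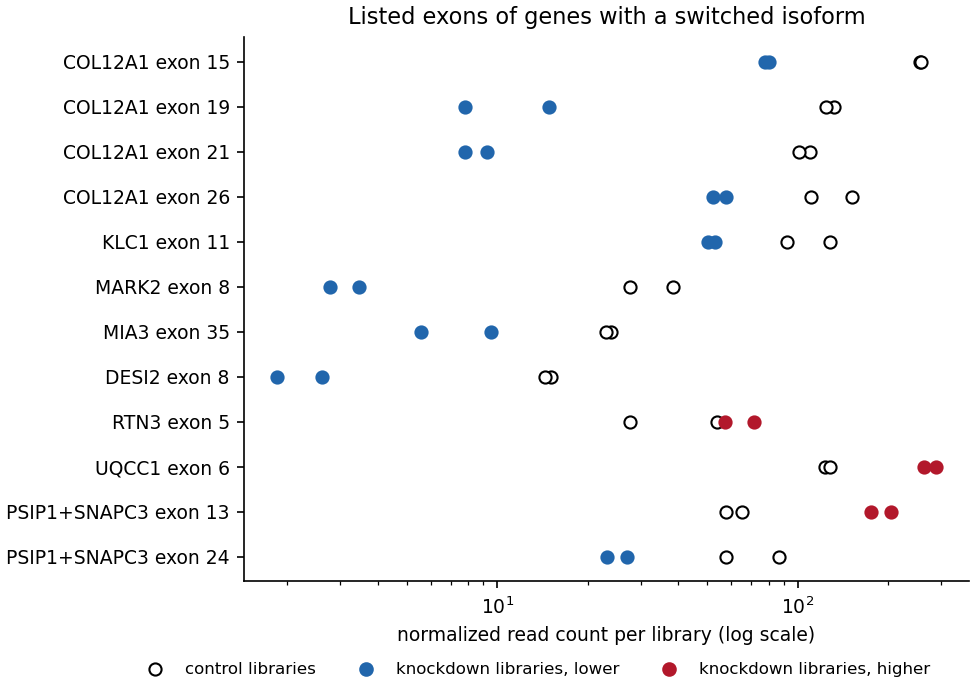
Normalized read count per library (x axis, log scale) for the 10 listed exons of single-gene loci and 2 of the merged PSIP1 and SNAPC3 locus, with open circles for the 2 control libraries and filled circles for the 2 knockdown libraries, blue where lower and red where higher. The libraries of a group do not overlap with those of the other in any exon, and exon 5 of RTN3 has the narrowest gap, between 53.7 and 57.3.

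The intron table, with group means of normalized counts, listed 47 introns in 38 of the genes, 32 of them lower, where 71.7% of all its introns were lower. In genes with off isoforms alone 21 of 23 introns were lower (91.3%), and in genes with on isoforms alone 9 of 21 (42.9%). Intron 11 of HHAT, the acyltransferase that palmitoylates Hedgehog proteins, went from 11.6 to 467 normalized counts, and its on isoform went from 0.0152 to 1.01 FPKM. In EWSR1, an RNA-binding protein, introns 9, 10 and 11 went from 2074, 1387 and 511 to 561, 431 and 165 normalized counts, and the off isoform from 4.41 FPKM to 0. Intron 15 of KLC1 went from 102 to 35.7 normalized counts, and intron 18 of POGZ from 546 to 216. Introns were higher in MAX (intron 14, from 41.6 to 116), YY1AP1 (intron 6, from 43.3 to 130) and PPARG (intron 11, from 43.6 to 126). Other introns moved against the switched isoform. In genes with on isoforms, intron 4 of CDV3 went from 1202 to 434 normalized counts and intron 37 of UNC13A from 18.9 to 0.420. In genes with off isoforms, intron 10 of DIDO1 went from 66.3 to 165 and intron 7 of ZNF644 from 51.8 to 155. A count over an intron can hold reads of an isoform that starts or ends inside it. HHAT, EWSR1, CDV3, DIDO1 and ZNF644 were named after their values were seen.

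As a check of the cells, 12 hepatocyte and 11 other cell type markers were looked up, and none had a switched isoform. None of the hepatocyte markers was in the gene table. Of the other markers 4 were in the isoform table and 3 in the gene table, all higher: the monocyte gene CD14 at 4.65 and 24.8 normalized counts, the endothelial gene CDH5 at 161 and 1143, and the neural gene SYP at 27.0 and 69.2. Markers that are not listed have no value here, and the part of other cells in the switched isoforms was not tested.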

How the data were processed

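RNA was measured in 4 libraries, 2 per group. The submitters' processing notes list hg18 and the programs TopHat 1.2.0, Cufflinks, Cuffdiff 1.0.3, HTSeq, DESeq 1.5.24 and CASAVA 1.8, without roles. The authors deposited isoform values as 1 FPKM per group, per the file headers. The authors deposited a natural log of the fold change beside them, which was not used. For genes and introns the authors deposited group means of a normalized count signal, with a fold ratio and a log2 fold change. In the exon table the authors deposited a normalized count signal per library. The deposited p-values are the authors' own. Each isoform listed has a deposited adjusted p under 0.05 and at least a 2-fold change, checked on the values. Other isoforms have no value here.

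Isoforms were chosen and counted in pandas 2.3.3 with Python 3.11.15, after a search step tested on simulated data. ACA marked a small RNA name only before a digit, and hsa-mir and SRP_euk_arch names were set aside too. Transcripts were matched to GENCODE v29 (GRCh38) by ID without version, under the same gene symbol or RefSeq synonym. Starts or ends within 50 bases counted as the same. No test was run. The replicates are called biological by the series design, and library depth is unknown. Genes were named by these rules: the 12 highest on and off isoforms, genes switched both ways, 6 genes per direction with the smallest adjusted p in the gene table, exons of single-gene loci, gene list members, the 6 highest genes with several switched isoforms, and isoforms next to the thresholds. Others are marked as named after their values were seen. The members and lists were chosen with earlier results of these data known. Alternatives covered the thresholds, the small RNA names, a pseudocount of 1 FPKM, recentring, the authors' adjusted p, single-gene exon loci and leaving out each library.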

Additional observations from a re-analysis of the deposited data

How the results depend on the processing

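No paired analysis was possible because every result here is a count or value that comes from no test. The isoform values carry no replicate, and the exon values per library were described without a block. The reference counts are 196 on, 162 off, 32.7% with an opposite isoform and 8 genes switched both ways. A silent group at exactly 0 left 2 such genes. An active level of 0.5 FPKM gave 317 on, 280 off and 22 genes, and one of 2 FPKM gave 101 off and 4 genes. With small RNA names kept there were 320 on, 253 off, 47.5% and 17 genes. The share with an opposite isoform was 20.9% with a pseudocount of 1 FPKM and a 2-fold change, 27.4% after recentring on the median with a 2-fold change still required and 27.4% where the other isoform had to reach 1 FPKM. The median used for recentring is that of the listed, changed isoforms alone. Isoforms with gene symbols, an alternative chosen after seeing the data, gave 113 on, 100 off and 54.0%. Of exons whose mean reached 50 normalized counts, 6 of 11 were lower, against 11 of 18. Leaving out each library in turn left 11 lower. That outcome was fixed in advance, because the groups overlap in none of the 18 exons. The other alternatives, a silent level of 0.05 FPKM, an adjusted p under 0.01, 1 isoform per gene, single-gene loci and the small RNA prefixes read literally (chosen after seeing the data), moved no count by over 1.5 times. Depth limits all FPKM values to an unknown degree, and a value of 0 may be a failed estimate.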
